A study of Mus musculus with 9 samples.

Results

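Insulin-like growth factors and the proteins that receive or bind them were followed through 9 RNA-seq libraries of mouse bone marrow macrophages. The set holds 10 genes of 28998 in the deposited table, found by their symbols: the ligands Igf1 and Igf2, the receptors Igf1r and Igf2r, and the binding proteins Igfbp2, Igfbp3, Igfbp4, Igfbp5, Igfbp6 and Igfbp7. The cells were derived with GM-CSF over 7 days from marrow monocytes of C57 mice of WT (wild-type) genotype, and the labels call them BMDMs and an adherent cell line. There were 3 groups of 3 libraries. JHU083 cells received JHU083, described in the field as a prodrug that releases the glutamine antagonist DON, for 36 h. WGFT17 cells received WGFT17, known here only by this code name, also for 36 h. For Control cells the labels name no agent and no time, and they give no dose for either drug. Nothing says that replicates came from separate animals or cultures, and p-values therefore measure the spread between these libraries, which may be technical.

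Insulin-like growth factors are small secreted hormones related to insulin. IGF1 and IGF2 signal through the IGF1 receptor, a tyrosine kinase that activates the PI3K and AKT pathway, whereas the IGF2 receptor takes up IGF2 for breakdown and carries lysosomal enzymes that bear mannose 6-phosphate. The binding proteins hold the ligands outside the cell and set how much reaches the receptor, and proteases such as pappalysin release the ligand again. Macrophages are a well-known source of IGF1 in injured and inflamed tissue, while most binding proteins are typical products of fibroblasts, smooth muscle, endothelium or liver.

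Library totals ranged from 56624220 to 69112134 estimated counts, and each library had 21556 genes or more above 0. The 10 macrophage markers (among them Adgre1, Csf1r and Cd68) were present in all libraries, with a summed level of 9696 to 12099 FPKM (fragments scaled to transcript length and to library depth). Lyz2 alone made up most of that sum, with 7702 to 10047 FPKM. Markers of other cells were present too. The 15 fibroblast and stromal markers summed to 2724 to 2924 FPKM in the Control libraries, 1851 to 2213 with JHU083 and 717 to 773 with WGFT17. The libraries also differed in transcripts of other tissues. The summed level of 8 heart muscle markers was 49.8 to 58.2 FPKM in the Control libraries, 39.6, 0.25 and 70.2 with JHU083 (replicates 1 to 3) and 0.21 to 0.23 with WGFT17. For 8 photoreceptor markers it was 6.44 to 8.56 in the Control libraries, 0.17, 0.12 and 7.39 with JHU083 and 0.08 to 0.15 with WGFT17. JHU083 replicate 3 was within or above the Control range for both lists, replicate 1 carried the heart transcripts only, and replicate 2 neither at that level. Members' values without replicate 3 are given below.

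Of the 10 genes, 8 had a mean of at least 1 FPKM over the 9 libraries and entered the test across 11798 genes. Igf2 and Igfbp3 lay under that minimum, and their changes come from a fit of all 28998 genes with no minimum. Igfbp5 had 0.51 to 0.72 FPKM in WGFT17 and passed through the Control and JHU083 libraries. Counts among the 8 therefore depend in part on this minimum. All adjusted p-values below are from edgeR's quasi-likelihood test with Benjamini-Hochberg adjustment over all genes of the fit, with 0.05 as the threshold for a call. Both drug groups are compared with the same 3 Control libraries.

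The 10 genes lie at the following places in GRCm38 coordinates. Igf1 spans 87858265 to 87937042 on chromosome 10 and Igf2 142650766 to 142666816 on chromosome 7, which also holds Igf1r at 67952827 to 68233668. Igf2r is on chromosome 17 at 12682406 to 12769664. Igfbp2 (72824503 to 72852474, + strand) and Igfbp5 (72857932 to 72874884, - strand) are neighbours on chromosome 1 with 5457 bases between their ends. On chromosome 11, Igfbp3 (7206086 to 7213923) lies 3539 bases from Igfbp1, and Igfbp4 at 99041244 to 99054392. Igfbp6 is on chromosome 15 at 102144362 to 102149511 and Igfbp7 on chromosome 5 at 77349240 to 77408041. Igf2 overlaps the coding gene model Gm49394 on its own strand and Igf2os on the other, Igf1 overlaps Igf1os, Igf2r overlaps Airn, and Igfbp7 overlaps Polr2b. The library preparation marks strand, but the sources used here do not say whether the counting used it, so reads of such partners may be shared.

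The stretches before a transcription start of each of the 4 binding protein genes that fell in WGFT17, and of Igf2r, for which no change was called, are printed here because the 4 moved in the same direction. They were taken from RefSeq (GRCm38.p6), whose table matched all 10 genes, run 5′ to 3′ along the gene's strand, and stop where transcribed sequence begins. Capitals mark the motifs searched on both strands: the TATA box (TATAAA), the GC box (GGGCGG), the CCAAT box (CCAAT) and the AP-1 motif (TGANTCA). Matches on the other strand appear as their reverse complement, and neighbouring matches run together.
Igfbp5, chr1:72874885-72875115, - strand: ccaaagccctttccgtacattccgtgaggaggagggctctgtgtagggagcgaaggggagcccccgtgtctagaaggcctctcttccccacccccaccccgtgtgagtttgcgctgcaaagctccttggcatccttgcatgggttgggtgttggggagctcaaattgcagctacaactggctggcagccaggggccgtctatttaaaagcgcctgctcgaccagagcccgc
Igfbp2, chr1:72824230-72824479, + strand: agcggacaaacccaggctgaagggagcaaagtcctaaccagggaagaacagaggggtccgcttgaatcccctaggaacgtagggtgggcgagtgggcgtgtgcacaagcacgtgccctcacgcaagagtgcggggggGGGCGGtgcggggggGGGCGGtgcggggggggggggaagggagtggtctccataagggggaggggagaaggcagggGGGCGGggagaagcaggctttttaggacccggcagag
Igfbp7, chr5:77408046-77408295, - strand: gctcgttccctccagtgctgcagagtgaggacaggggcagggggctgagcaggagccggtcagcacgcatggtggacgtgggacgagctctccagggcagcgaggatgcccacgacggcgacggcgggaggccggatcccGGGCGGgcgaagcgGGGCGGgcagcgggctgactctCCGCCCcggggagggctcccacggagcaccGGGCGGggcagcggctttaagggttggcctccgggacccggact
Igfbp4, chr11:99040994-99041243, + strand: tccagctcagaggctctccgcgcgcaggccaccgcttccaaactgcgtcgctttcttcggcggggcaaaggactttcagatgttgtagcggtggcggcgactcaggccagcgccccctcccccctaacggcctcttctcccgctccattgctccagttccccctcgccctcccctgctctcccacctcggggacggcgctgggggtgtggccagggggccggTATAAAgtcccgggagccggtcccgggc
Igf2r, chr17:12769707-12769956, - strand: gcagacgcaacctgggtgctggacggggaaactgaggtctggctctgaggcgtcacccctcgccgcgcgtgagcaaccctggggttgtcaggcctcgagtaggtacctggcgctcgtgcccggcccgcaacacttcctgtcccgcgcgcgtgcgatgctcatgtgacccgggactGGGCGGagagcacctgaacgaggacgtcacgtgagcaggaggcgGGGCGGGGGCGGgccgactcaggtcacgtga

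The GC box was found 3 times in the window printed for Igfbp2, 4 times before Igfbp7 and 3 times before Igf2r. Igfbp2 has a further RefSeq start, not printed, whose window of 250 bases (chr1:72825137-72825386) held 0 GC boxes and 1 AP-1 motif, with a GC content of 56.4%. An annotated exon begins after the first 185 bases of that window, and the AP-1 match does not lie within those 185 bases. The Igfbp5 window held none of the 4 motifs, and the Igfbp4 window held 1 TATA box. Of 32851 windows of 250 bases before RefSeq starts, 32.7% hold the GC box, 12.4% the TATA box, 33.8% the CCAAT box and 6.75% the AP-1 motif. GC content was 58.8% for the 250 bases before the RefSeq start of Igfbp5, 67.2% for the printed start of Igfbp2, 74.0% for Igfbp7, 69.2% for Igfbp4 and 69.2% for Igf2r, against a median of 52.4% over all windows. A motif match is a description of the letters and says nothing of binding. No motif searched was found in all 4 printed windows of the binding proteins. The GC box, found in those of Igfbp2 and Igfbp7, was also found before Igf2r. It was found 2 times in the window before Igf1r, not printed, which was lower in WGFT17 too. Any part of these motifs in the changes was not tested.

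In Control cells the order of transcript levels per length was Igfbp7, Igfbp4, Igf1, Igf2r, Igfbp5, Igfbp2, Igf1r, Igfbp6, Igf2 and Igfbp3. Mean levels fell from 86.5 ± 1.01 FPKM (SD, n = 3) for Igfbp7 to 0.447 ± 0.0321 for Igfbp3, and no range over the 3 libraries overlapped that of the next gene. In JHU083 cells the order was the same, and the ranges of Igfbp4 and Igf1 overlapped. In WGFT17 cells the receptor Igf2r (36.3 ± 0.807) and the ligand Igf1 (33.4 ± 0.331) came first, followed by Igfbp7 (30.3 ± 1.56) and Igfbp4 (30.1 ± 2.68), whose ranges overlapped. Igfbp5 stood ninth there. From Igf1r to Igfbp5, each gene's range overlapped that of the next.

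**Figure D1:**
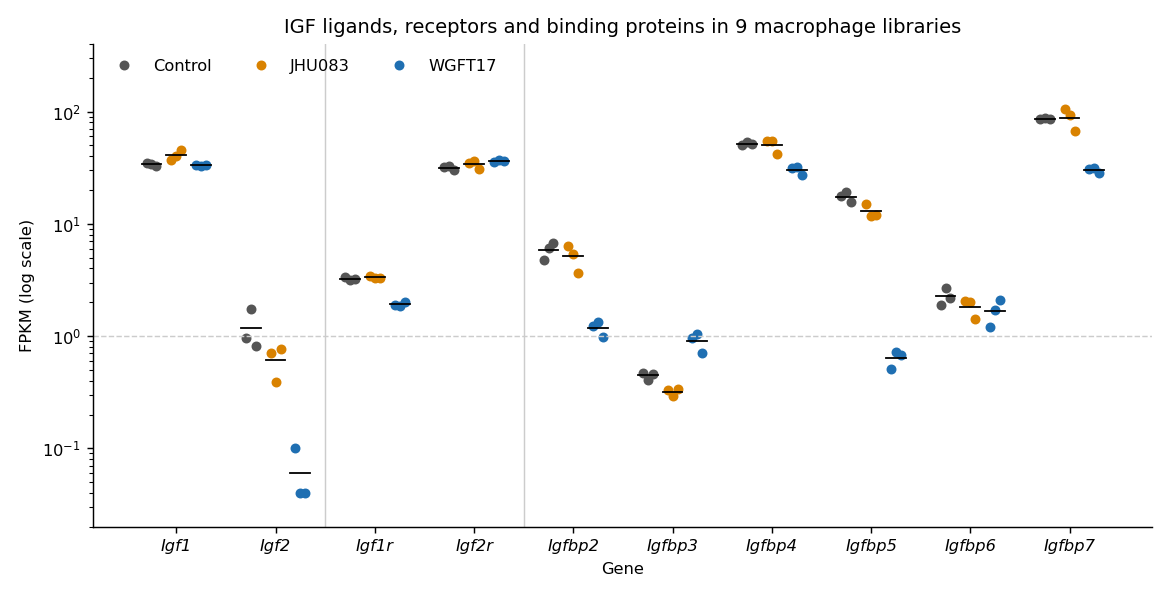
FPKM on a log axis of each gene in each library (points, replicates 1 to 3 from left to right) with the group mean (black line); the dashed line marks 1 FPKM and vertical lines part ligands, receptors and binding proteins. Igfbp5 drops from 15.6 to 19.3 FPKM in Control to 0.51 to 0.72 in WGFT17, while Igf1 and Igf2r stay between 30.2 and 45.5 in all libraries.

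WGFT17 against Control asks which transcripts of the system differ after the compound known by its code name. The binding proteins Igfbp5, Igfbp2, Igfbp7 and Igfbp4 and the receptor Igf1r were lower in WGFT17, by between 29.5-fold and 1.82-fold. Among the 8 tested members 5 passed as lower and 0 as higher, leaving 3 that missed the threshold, where 58.0% of all tested genes were called, 30.0% lower and 28.0% higher. Called and at least 2-fold lower were 3 of the 8, against 10.8% of all tested genes. These counts leave out Igfbp3, higher in WGFT17, and Igf2, lower in it, which lay under the FPKM minimum. The FPKM ranges of the groups did not overlap for 6 of the 8 genes, against 73.2% of all tested genes. The median log2 change of the 8 genes was -0.88, beside 0.0044 for all tested genes.

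Igfbp5 encodes a binding protein that associates with extracellular matrix and is made by fibroblasts, bone and muscle cells. It had 17.6, 19.3 and 15.6 FPKM in the Control libraries, 15.2, 11.8 and 12.03 with JHU083 and 0.51, 0.72 and 0.68 with WGFT17. The 3 WGFT17 libraries lay far below the 6 others, and the JHU083 libraries lay below all Control libraries. The log2 change in WGFT17 was -4.88 (SE 0.15, adjusted p = 5.39e-10), a 29.5-fold lower level, and ranked 47 of 11798 tested genes from the lowest change. Its counts were 225 to 319 in the WGFT17 libraries. The size of the fall depends on the processing, with log2 changes from -4.98 to -3.50 over the alternatives run.

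Igfbp2, a binding protein known from liver and other tissues, had 4.77, 6.07 and 6.72 FPKM in the Control libraries, 6.36, 5.38 and 3.67 with JHU083 and 1.23, 1.34 and 0.98 with WGFT17. The WGFT17 libraries were below all others, while JHU083 and Control overlapped. Its log2 change was -2.40 (SE 0.22, adjusted p = 3.2e-06), which is 5.30-fold lower. Igfbp2 and Igfbp5, the neighbours on chromosome 1, thus both fell, but by unequal amounts.

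Igfbp7, the most abundant binding protein transcript, encodes a secreted protein of vessels and stroma that binds IGFs with low affinity. It had 85.5, 87.5 and 86.6 FPKM in the Control libraries, 105, 92.3 and 67.0 with JHU083 and 30.6, 31.7 and 28.6 with WGFT17. Control libraries agreed closely, JHU083 libraries spread above and below them, and WGFT17 libraries lay below all others. It was 3.08-fold lower in WGFT17 (log2 change -1.62, SE 0.13, adjusted p = 9.01e-07).

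Igfbp4, a soluble inhibitor of IGF action and the main substrate of pappalysin, had 50.1, 53.8 and 51.6 FPKM in the Control libraries, 54.4, 54.3 and 42.1 with JHU083 and 31.5, 31.9 and 27.0 with WGFT17. Its WGFT17 libraries also lay below the 6 others. The log2 change was -0.89 (SE 0.10, adjusted p = 1.33e-05), a 1.85-fold lower level.

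Igfbp6, which prefers IGF2 over IGF1, had 1.89, 2.70 and 2.2 FPKM in the Control libraries, 2.04, 2.03 and 1.43 with JHU083 and 1.21, 1.72 and 2.08 with WGFT17. The 3 groups overlapped, and no change was called (log2 change -0.55, 95% interval -1.10 to 0.0071, adjusted p = 0.0837). Without WGFT17 replicate 3 it was called (log2 change -0.73, adjusted p = 0.0479). Its counts were 98 to 221 per library, so this gene rests on few reads.

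Igfbp3, the main carrier of IGFs in blood, was the least abundant of the set in Control and went the other way. It had 0.47, 0.41 and 0.46 FPKM in the Control libraries, 0.33, 0.29 and 0.34 with JHU083 and 0.97, 1.04 and 0.70 with WGFT17. WGFT17 libraries lay above all Control libraries and Control above all JHU083 libraries. In the fit with no minimum, where 27.3% of genes were called, it rose by 0.92 on the log2 scale (SE 0.22, adjusted p = 0.00904). Its chromosome 11 neighbour Igfbp1, named here after its values were seen, had 1.63 to 2.23 FPKM in Control and 1.48 to 2.91 in WGFT17 and was not called (adjusted p = 0.66).

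**Figure D2:**
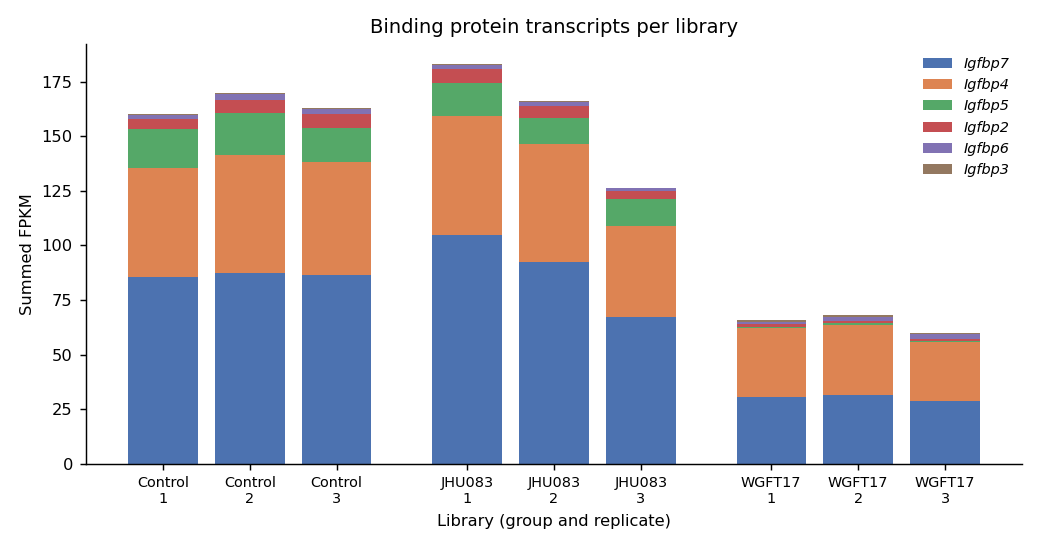
Stacked FPKM (from 0) of the 6 binding protein genes in each library, grouped by treatment. The sums are 160 to 170 in the Control libraries, 127 to 183 with JHU083 and 60.1 to 68.4 with WGFT17, and the Igfbp5 segment is visible in Control and JHU083 but not in WGFT17.

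Added together, the 6 binding protein transcripts came to 160, 170 and 163 FPKM in the Control libraries, 183, 166 and 127 with JHU083 and 66.0, 68.4 and 60.1 with WGFT17. The makeup differed as well as the sum. Igfbp5 took 10.6% ± 0.977 of the sum in Control (SD, n = 3), 8.29% ± 1.2 in JHU083 and 0.986% ± 0.189 in WGFT17. Igfbp7 and Igfbp4 together took 84.2% ± 0.825 in Control, 87.1% ± 1.04 in JHU083 and 93.2% ± 0.758 in WGFT17. Igfbp7 exceeded Igfbp4 in Control and JHU083, with 52.6% against 31.5% in Control, while in WGFT17 the shares were 46.8% and 46.4%. These shares are a description and were not tested.

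Among the receptors, Igf1r, the signalling receptor, was lower and Igf2r was not called. Igf1r had 3.36, 3.14 and 3.24 FPKM in the Control libraries, 3.44, 3.32 and 3.29 with JHU083 and 1.89, 1.85 and 2.02 with WGFT17. Control and JHU083 overlapped, and WGFT17 lay apart with a narrow spread. The fall was 1.82-fold (log2 change -0.86, SE 0.06, adjusted p = 1.98e-07). Igf2r had 32.2, 32.5 and 30.2 FPKM in the Control libraries, 34.5, 36.1 and 31.0 with JHU083 and 35.5, 37.1 and 36.2 with WGFT17. Its FPKM did not overlap between WGFT17 and Control, but the log2 change was 0.09 (95% interval -0.04 to 0.22, adjusted p = 0.219). On the FPKM scale, where the median of all tested genes shifts by 0.0951, limma gave 0.19 (adjusted p = 0.02).

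The ligands differed from each other. Igf1 had 34.8, 33.8 and 32.8 FPKM in Control and 33.7, 33.0 and 33.5 in WGFT17, with overlapping libraries. No change was called (log2 change -0.13, 95% interval -0.28 to 0.02, adjusted p = 0.136), except in a fit of these 2 groups alone (-0.13, adjusted p = 0.0115). Igf2, an imprinted gene that is active mainly before birth, had 0.97, 1.76 and 0.82 FPKM in the Control libraries, 0.70, 0.39 and 0.76 with JHU083 and 0.10, 0.04 and 0.04 with WGFT17. The 3 groups did not overlap, though all levels were low. With no minimum, Igf2 was 21-fold lower in WGFT17 (log2 change -4.39, SE 0.46, adjusted p = 5.17e-05), from counts of 354 to 742 in Control and 15 to 41 in WGFT17. About 4 of these estimated counts may stand for 1 read pair, so the WGFT17 values rest on a few pairs.

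**Figure D3:**
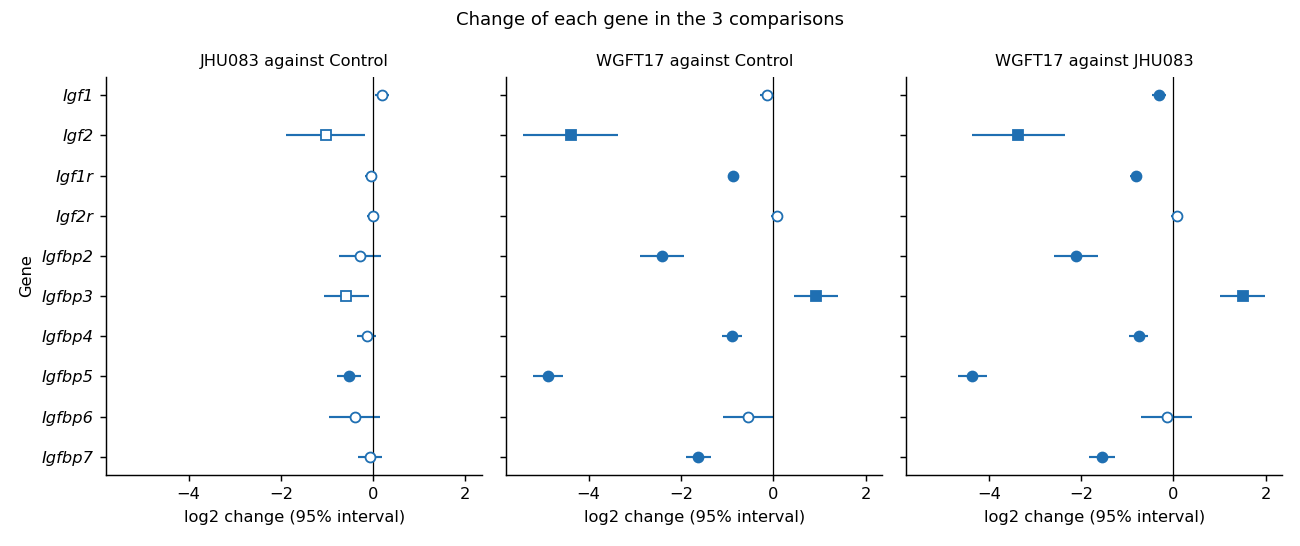
Log2 change of each gene with its 95% interval in the 3 comparisons; filled symbols were called at an adjusted p under 0.05, and squares (Igf2, Igfbp3) are from the fit with no minimum. In both comparisons of WGFT17, Igfbp5, Igfbp2, Igfbp7, Igfbp4, Igf1r and Igf2 lie left of 0 and Igfbp3 right of it, whereas in JHU083 against Control the only filled symbol is Igfbp5.

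Markers of other cells differed between the groups too, and their lists did not all move alike. Over all tested genes, 30.0% were called lower and 28.0% higher in WGFT17 against Control. In that comparison, 13 of 13 tested fibroblast and stromal markers were lower, with log2 changes from -4.93 (Col3a1) to -0.70 (Fn1) and a median of -2.10. Smooth muscle markers summed to 1427 to 1549 FPKM in the Control libraries, 955 to 1214 with JHU083 and 148 to 180 with WGFT17, and 5 of 5 tested ones were lower. The 10 liver markers summed to 779 to 810 in the Control libraries, 398 to 533 with JHU083 and 261 to 410 with WGFT17, with 8 of 10 lower in WGFT17. Of 4 tested endothelial markers 3 were lower and 1 higher, and their 6 genes summed to 9.20 to 10.2 FPKM in Control and 11.9 to 13.4 in WGFT17. Of the 10 macrophage markers, 2 were higher, 4 lower and 4 did not pass, with log2 changes from -1.08 (Aif1) to 0.24 (Mertk). None of the fibroblast, smooth muscle, liver or endothelial markers was at 0 in all libraries of a group; Actc1 of the heart list, Rcvrn, Prph2, Nrl and Crx of the photoreceptor list and Elane and Ltf of 8 neutrophil markers were at 0 in WGFT17. Those 8 neutrophil markers summed to 38.6 to 47.8 FPKM in the Control libraries, 9.74 to 11.9 with JHU083 and 1.28 to 2.29 with WGFT17. Lower in WGFT17 against Control were 5 of 5 tested heart, 2 of 2 photoreceptor and 3 of 3 neutrophil markers. Their median log2 changes were -9.48, -7.54 and -5.53. Most of these genes had a mean under 1 FPKM in WGFT17 and passed the minimum through the other groups. The part of these cells in the falls of the binding proteins was not tested, and in bulk RNA fewer cells of a type and less RNA per cell cannot be told apart.

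**Figure D4:**
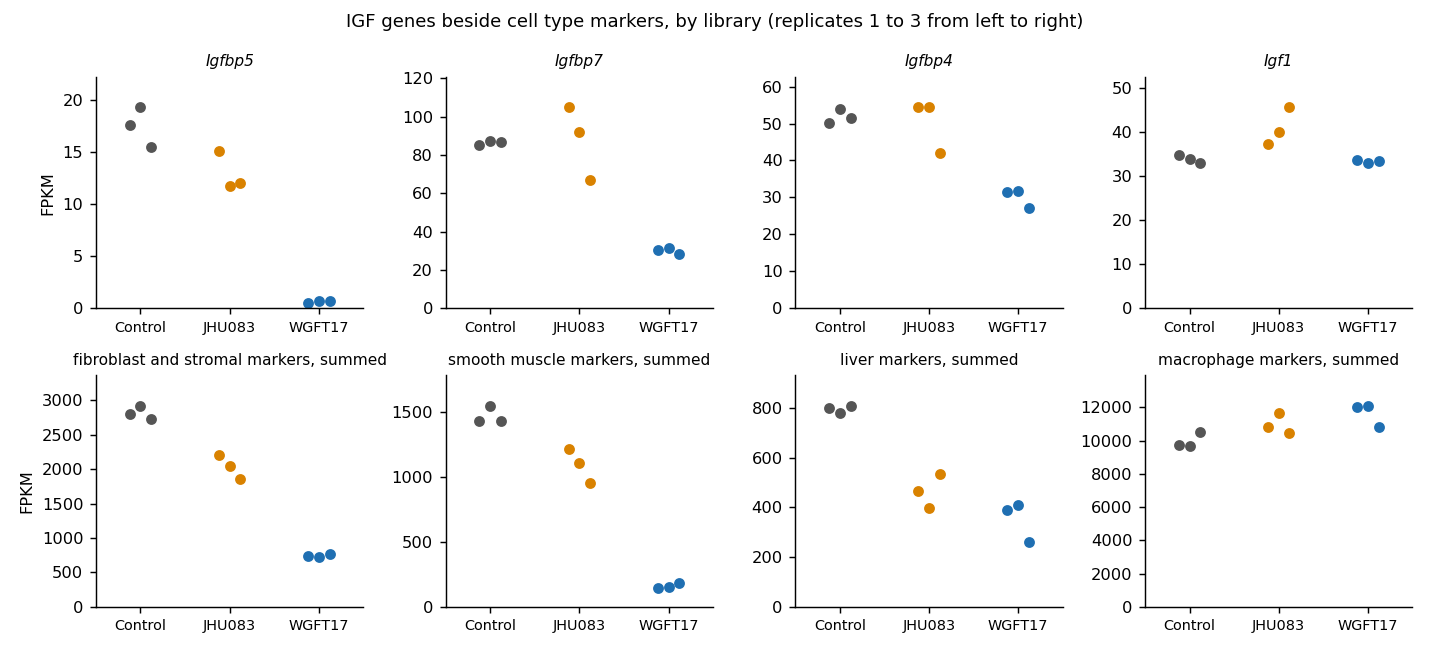
FPKM of 4 genes (upper row) and summed FPKM of 4 marker lists (lower row) in each library, all axes from 0. Most of the macrophage sum is Lyz2 (7702 to 10047 FPKM). The fibroblast and smooth muscle sums fall in the order Control, JHU083, WGFT17 with no overlap between groups, as does Igfbp5. The neutrophil sum, not plotted, falls in that order too, with no overlap. Igfbp7 and Igfbp4 overlap between Control and JHU083, and Igf1 is highest in the JHU083 libraries.

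JHU083 against Control puts the same question for the glutamine antagonist. Igfbp5 alone was called: 1 of 8 tested members passed as lower, 0 as higher and 7 missed the threshold, where 24.0% of all tested genes were called and 12.5% were called lower. Igfbp5 fell by 0.52 on the log2 scale (SE 0.12, adjusted p = 0.0107), a 1.44-fold lower level, and no called member had fallen 2-fold or more, which 1.18% of all tested genes had. Its FPKM did not overlap between the groups. Without Control replicate 2 the log2 change was -0.45 and not called (adjusted p = 0.0528), and then none of the 8 genes passed. Calls over all genes also dropped, from 2831 to 1534 without Control replicate 2 and to 1568 without Control replicate 3. Beside it, 11 of 13 tested fibroblast and stromal markers and 4 of 5 smooth muscle markers were lower in JHU083. Also lower were 8 of 10 liver, 3 of 3 neutrophil and 3 of 10 macrophage markers, where 12.5% of all tested genes were lower. Higher was 1 macrophage marker, and no tested endothelial, heart or photoreceptor marker was called. Median log2 changes were -0.49 for the stromal, -0.58 for the smooth muscle, -1.36 for the liver and -2.07 for the neutrophil list. The part of these cells was not tested.

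Igf1 had 37.3, 40.0 and 45.5 FPKM in JHU083. All 3 libraries were above all Control libraries, as FPKM did not overlap for 2 of the 8 genes, against 43.7% of all tested genes. The log2 change of the counts was 0.18 (95% interval 0.03 to 0.34, adjusted p = 0.0741) and missed the threshold. On the FPKM scale, where the median of all tested genes shifts by 0.0789, limma gave 0.27 (adjusted p = 0.0181). Without JHU083 replicate 1 the log2 change was 0.25 and called (adjusted p = 0.0229), so members called then numbered 2, and without JHU083 replicate 3 it was 0.09 (adjusted p = 0.121).

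The remaining tested genes gave intervals that include 0 in the main fit. They were -0.17 to 0.07 for Igf1r, -0.12 to 0.13 for Igf2r, -0.35 to 0.07 for Igfbp4, -0.34 to 0.20 for Igfbp7, -0.73 to 0.16 for Igfbp2 and -0.95 to 0.15 for Igfbp6. The intervals of the receptors are narrow, those of Igfbp2 and Igfbp6 wide. With no minimum, where 6.52% of genes were called, Igf2 had a log2 change of -1.03 (95% interval -1.89 to -0.17, adjusted p = 0.162). Igfbp3 had a log2 change of -0.58 (95% interval -1.07 to -0.09, adjusted p = 0.169). Both intervals leave out 0, but neither gene was called after adjustment. Igf2 passed with DESeq2 (adjusted p = 0.0177) and with counts divided by 4 (adjusted p = 0.00541). The median log2 change of the 8 tested genes was -0.10, beside 0.0037 for all tested genes.

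The JHU083 libraries spread more than those of the other groups in the abundant binding proteins. The SD of Igfbp7 was 19.3 FPKM in JHU083, against 1.01 in Control and 1.56 in WGFT17, and that of Igfbp4 was 7.07 against 1.9 and 2.68. JHU083 replicate 3 was the lowest of its group for 6 of the 10 genes (Igf1r, Igf2r, Igfbp2, Igfbp4, Igfbp6 and Igfbp7) and the highest for 3 (Igf1, Igf2 and Igfbp3). It also had the lowest stromal sum (1851 FPKM against 2213 and 2042) and carried the heart and photoreceptor transcripts. Without it the log2 change of Igfbp5 in JHU083 was -0.48 (adjusted p = 0.0149), and those of Igfbp7 and Igfbp4 were 0.09 and -0.03, neither called.

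Compared directly, WGFT17 cells had less of 6 of the 8 tested genes than JHU083 cells. Lower were Igfbp5, Igfbp2, Igfbp7, Igf1r, Igfbp4 and Igf1, none was higher and 2 did not pass, where 44.7% of all tested genes were called and 24.4% were called lower. Called and at least 2-fold lower were 3 of the 8, against 7.98% of all tested genes, and 0 were at least 2-fold higher, against 1.40%. The FPKM minimum left Igfbp3, higher in WGFT17, and Igf2, lower in it, out of these counts. Groups did not overlap in FPKM for 6 of the 8, against 53.4% of all tested genes. The median log2 change was -0.78, beside 0.0062 for all tested genes.

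Igfbp5 was 20.5-fold lower in WGFT17 than in JHU083 (log2 change -4.36, SE 0.14, adjusted p = 1.48e-09). The log2 change was -2.12 for Igfbp2 (adjusted p = 1.1e-05), -1.55 for Igfbp7 (adjusted p = 1.65e-06), -0.81 for Igf1r (adjusted p = 4.01e-07) and -0.75 for Igfbp4 (adjusted p = 6.34e-05). Igf1 differed between the drug groups, with a log2 change of -0.31 (SE 0.07, adjusted p = 0.00333) and no overlap, although in the main fit neither drug group was called against Control. No difference was called for Igf2r (95% interval -0.04 to 0.21) or Igfbp6 (-0.70 to 0.41). With no minimum, where 20.4% of genes were called, Igf2 was lower (log2 change -3.36, adjusted p = 0.000361) and Igfbp3 higher (1.5, adjusted p = 0.000661) in WGFT17. Without JHU083 replicate 3, the same 6 genes were called, with log2 changes from -4.40 for Igfbp5 to -0.22 for Igf1. Also here 13 of 13 fibroblast and stromal markers were lower in WGFT17, with a median of -1.77. So were 5 of 5 smooth muscle, 3 of 3 neutrophil and 3 of 4 endothelial markers, with 1 endothelial marker higher. Called lower as well were 5 of 5 heart muscle and 2 of 2 photoreceptor markers. Of 10 liver markers 2 were lower, and of 10 macrophage markers 5, with 2 higher. The share called lower over all tested genes was 24.4%. The part of these cells was not tested.

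Outside the 10 genes, the system was followed through lists with 88 further symbols, of which 77 are in the table and 64 were tested. The symbols include both current and old names of the CCN genes (12 symbols, 6 of them in the table), so there are fewer genes than symbols. In WGFT17 against Control 24 were higher and 23 lower, with a median log2 change of 0.07, where 28.0% of all tested genes were called higher and 30.0% lower. In JHU083 against Control 9 were higher, 10 lower and 45 did not pass, beside 11.5% higher and 12.5% lower over all tested genes. In WGFT17 against JHU083 16 were higher and 20 lower, beside 20.4% and 24.4%. These shares over all tested genes are also the background for each list that follows, and nothing particular to a list is read from its count. Values are given for a set of 22 genes chosen for their roles, of which 19 were tested; Stc1, Igf2bp3 and Socs2 were under the minimum.

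Of the 11 tested proteases of binding proteins and their inhibitors, 5 were higher and 5 lower in WGFT17 against Control (all tested genes: 28.0% and 30.0%), and 1 higher and 4 lower in JHU083 against Control (11.5% and 12.5%). Pappa encodes pappalysin-1, which cleaves IGFBP4 and IGFBP5. It had 4.33, 3.97 and 3.18 FPKM in the Control libraries, 2.30, 1.87 and 2.00 with JHU083 and 0.31, 0.23 and 0.32 with WGFT17. The 3 groups did not overlap. Pappa fell by 3.85 on the log2 scale in WGFT17 (adjusted p = 4.41e-09) and by 0.99 in JHU083 (adjusted p = 0.00128). Stc2, whose product stanniocalcin-2 inhibits pappalysin, had 0.85 ± 0.0557 FPKM in Control and 2.45 ± 0.351 in WGFT17 (SD, n = 3), a log2 change of 1.42 (adjusted p = 5.39e-05). Its mean in JHU083 was 0.887 FPKM, so it passed the minimum of 1 FPKM only through the WGFT17 libraries. The count of 5 higher genes therefore depends in part on this minimum. The secreted serine protease gene Htra1 rose by 0.88 on the log2 scale in WGFT17 (adjusted p = 0.000138) and Ctsd, the lysosomal protease cathepsin D, by 0.74 (adjusted p = 1.5e-06). Adam9, a membrane protease, rose by 0.19 in WGFT17 (adjusted p = 0.0104) and by 0.25 in JHU083 (adjusted p = 0.00697).

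Among 6 other tested ligands, receptors and carriers, 3 were higher and 1 lower in WGFT17 against Control (all tested genes: 28.0% and 30.0%). Insr, the insulin receptor gene, had 2.87 ± 0.0985 FPKM in the Control libraries, 3.79 ± 0.295 with JHU083 and 5.17 ± 0.316 with WGFT17. It rose by 0.74 on the log2 scale in WGFT17 (adjusted p = 4.95e-06) and by 0.31 in JHU083 (adjusted p = 0.011), while its relative Igf1r fell in WGFT17. M6pr, the other mannose 6-phosphate receptor, rose by 0.18 in WGFT17 (adjusted p = 0.0101), and the endocytic receptor Lrp1 by 0.31 (adjusted p = 0.00677). The 1 tested IGF2 mRNA-binding protein gene, Igf2bp2, fell by 0.34 in WGFT17 (adjusted p = 0.00233).

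Of 16 tested receptor adaptors and feedback genes, 4 were higher and 9 lower in WGFT17 against Control (all tested genes: 28.0% and 30.0%), and 0 higher and 1 lower in JHU083 against Control (11.5% and 12.5%). The docking proteins moved in opposite directions. Irs1 had 5.07, 5.16 and 4.2 FPKM in the Control libraries, 4.40, 3.80 and 4.83 with JHU083 and 1.02, 0.96 and 1.00 with WGFT17, a log2 change of -2.38 in WGFT17 (adjusted p = 8.95e-09). Irs2 had 2.97, 3.46 and 3.47 in the Control libraries, 4.18, 4.37 and 3.53 with JHU083 and 5.12, 5.84 and 4.99 with WGFT17, a log2 change of 0.58 (adjusted p = 0.00057). For both, the WGFT17 libraries did not overlap the others. Grb10, an adaptor that limits signalling of both receptors, fell by 0.68 on the log2 scale in WGFT17 (adjusted p = 3.92e-06) and by 0.51 in JHU083 (adjusted p = 0.000807). Socs3, a feedback inhibitor, fell by 1.11 in WGFT17 (adjusted p = 3.13e-06).

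Of 26 genes of the PI3K, AKT and mTOR arm, 12 were higher and 3 lower in WGFT17 against Control, where 58.0% of all tested genes were called in either direction. In JHU083 against Control 7 were higher and 2 lower, where 24.0% of all tested genes were called. Pik3r1, the regulatory subunit of PI3K, rose by 0.29 in JHU083 (adjusted p = 0.00851) and fell by 0.17 in WGFT17 (adjusted p = 0.0367). Akt1 and Foxo1 were not called in either comparison with Control. CCN genes encode matrix-associated proteins with an N-terminal domain like that of the binding proteins, and 4 of 4 tested ones were lower in WGFT17 against Control (30.0% of all tested genes). Ccn2 had 178 ± 10.5 FPKM in the Control libraries, 164 ± 29.1 with JHU083 and 31.3 ± 2.14 with WGFT17, with a log2 change of -2.62 in WGFT17 (adjusted p = 7.6e-09). Ccn1 fell by 2.29 (adjusted p = 1.52e-09) in WGFT17 and by 0.51 in JHU083 (adjusted p = 0.00173).

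**Figure D5:**
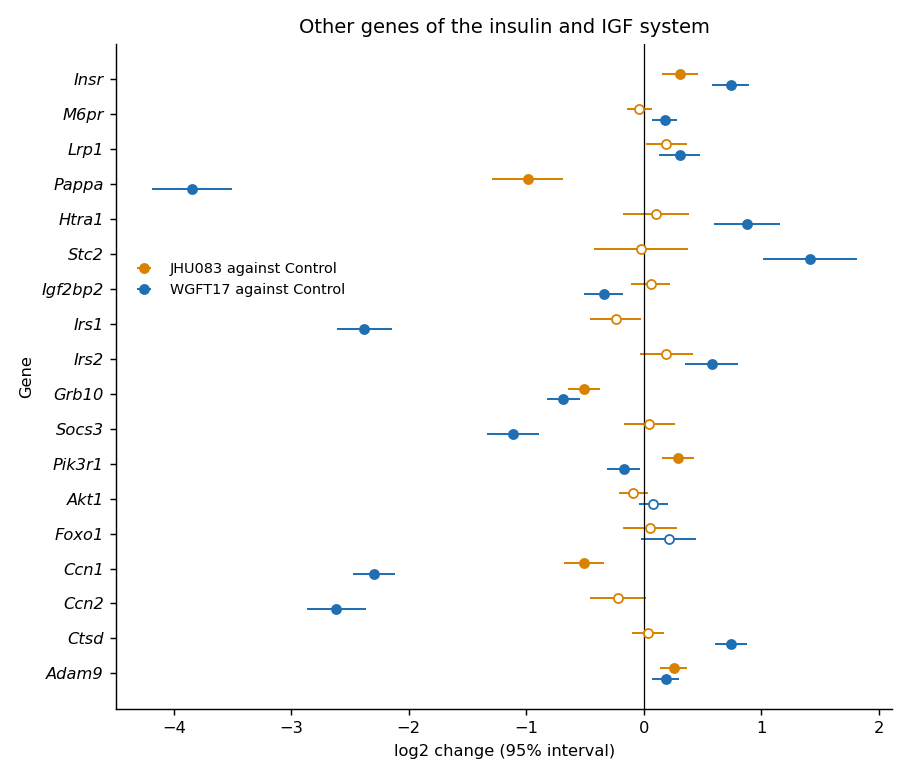
Log2 change with its 95% interval of genes with a role in the system, in JHU083 (orange) and WGFT17 (blue), each against the same Control libraries; filled symbols were called. Pappa, Ccn2, Irs1 and Ccn1 lie below -2 in WGFT17, and Stc2, Htra1, Insr, Ctsd and Irs2 lie above 0.5.

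Each tested gene was also set beside the genes whose log2 CPM, centred on the mean of the 9 libraries, differed least from its own. The measure is the root mean square difference over the 9 libraries, which share their groups and depth, so it describes likeness only. Igfbp5 was nearest to Npnt (0.16), S1pr3 (0.17) and Dkk3 (0.22). Igfbp7 was nearest to Wdr6 (0.08), Plekhf1 (0.08) and Ror2 (0.12), and Igfbp2 to Maged2 (0.18), Smtn (0.20) and Cavin3 (0.20). Igfbp4 was nearest to Vkorc1 (0.05), F10 (0.06) and C1qb (0.06), Igf1r to Bgn (0.05), Arsb (0.05) and Tsc22d1 (0.06), and Igfbp6 to Prmt1 (0.17), Mypop (0.18) and Mcee (0.18). Igf1 was nearest to Prps2 (0.05), Cdk14 (0.05) and Ap1s2 (0.05), and Igf2r to Snx8 (0.03), Hcfc1 (0.03) and Slc66a2 (0.03). Within the set the closest pair was Igf1r and Igfbp4 (0.14).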

How the data were processed

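Poly(A) RNA was made into 9 strand-marked libraries and read as pairs of 150 bases, per the labels' protocols. Tools listed in the submitters' processing notes are HISAT2 2.2.1, StringTie 2.1.6, cutadapt 1.9, edgeR and DESeq2; no role or setting is stated, and the build given is mm9. The deposited table holds, per its header, an estimated (expected) count and an FPKM value made by the authors for each gene and library. The expected counts deposited are whole numbers, unscaled; the value 4 occurs 8030 times against 4287 for 3 and 2712 for 5, so about 4 counts may stand for 1 read pair. Coordinates equal those of GENCODE M21 (GRCm38) for 90.2% of 28926 matched identifiers and for all 10 members. Columns were matched to groups by titles and descriptions.

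Genes with a mean of at least 1 FPKM were tested with edgeR 4.0.16 (R 4.3.3) quasi-likelihood on the counts; 1 fit held the 9 libraries, scaled by TMM, with Benjamini-Hochberg adjustment. Intervals are 95% from that model. Limma 3.58.1 on log2(FPKM + pseudocount 1 or 0.1) and DESeq2 1.42.0 were alternatives, beside other scalings, filters, counts divided by 4, a replicate block and left-out libraries. The procedure was tested on simulated data with the same relative spread for all genes and no library set apart from its group. That test does not cover such features of these data. The members and gene lists were chosen with earlier results of these data known. Named are all members, 22 genes fixed for their roles (1 of them is not reported here), and for each tested member the 3 genes of least root mean square difference (prior count 2), leaving out provisional symbols; marker genes named as range ends or at 0, and Igfbp1, were chosen after their values were seen. Log2 values are fold changes of the counts unless the FPKM scale is named.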

Additional observations from a re-analysis of the deposited data

How the results depend on the processing

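In WGFT17 against Control and against JHU083, every member called in the main analysis kept its direction and its call under all alternatives run. With a minimum of 5 FPKM, members called in WGFT17 against Control numbered 3 in place of 5, since Igf1r and Igfbp2 fell under that minimum, and all genes called numbered 4151 and, against JHU083, 3305 (6837 and 5277 at 1 FPKM). In JHU083 against Control, members called were 2 with limma on log2 FPKM at either pseudocount, against 1, and ranged from 0 to 2 when single libraries were left out; all genes called then ranged from 1534 to 3731. In that comparison, the share of calls that were higher was 47.7% with TMM, 58.7% with library totals alone and 71.6% with limma on log2(FPKM + 1); for WGFT17 against Control it was 48.3%, 50.6% and 60.9%. With pseudocount 0.1 the median of all genes moved to 0.11 in WGFT17 against Control. The causes were not tested. Igf2, Igfbp3 and Igfbp6 are limited by their low counts. Library numbers showed no clear pairing. Deviations of same-numbered libraries correlated between -0.0338 and 0.161, with 1 of 9 pairs over 0.1, and pairs of unlike number reached 0.133. In 7 of 18 cases a library correlated best with its own number. With 3 libraries a group, this check cannot exclude a pairing. With the replicate number as a block, members called were 1, 5 and 6 in the 3 comparisons, as without it, and all genes called were 2330, 6530 and 4907.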

Other observations

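The insulin receptor and IGF1 receptor transcripts stood in a different order in Control than in the drug groups. Per length, Igf1r had 3.25 ± 0.11 FPKM (SD, n = 3) and Insr 2.87 ± 0.0985 in Control, whereas in WGFT17 Igf1r had 1.92 ± 0.0889 and Insr 5.17 ± 0.316. In JHU083 Igf1r had 3.29 to 3.44 FPKM and Insr 3.5 to 4.09. Igf1r was the higher of the pair in all 3 Control libraries and the lower in all 3 JHU083 and all 3 WGFT17 libraries. The difference between the 2 genes was not tested.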
